A study of Homo sapiens with 4 samples.

Results

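The oxygen-sensing machinery and the subunits of the hypoxia-inducible factors (HIFs) comprised 10 genes, chosen by symbol among the 20263 genes counted in each of 4 RNA-seq libraries. They were the alpha subunits HIF1A, EPAS1 and HIF3A, the beta subunits ARNT and ARNT2, the prolyl hydroxylases EGLN1, EGLN2 and EGLN3, the asparaginyl hydroxylase HIF1AN and the ubiquitin ligase subunit VHL. The cells were HCT116, an established human colorectal carcinoma line labelled wild type. They were treated for 24 hours with 30 µM HJ-23 (2 libraries) or with 0.1% DMSO as the control (2 libraries). No DMSO content was recorded for the HJ-23 samples. HJ-23 is described by the submitters as a derivative of piperine, an alkaloid of black pepper. The titles and the series' design call the compound HJ-23, a separate treatment label calls it HJ-25, and the groups follow the titles. The count columns of the DMSO samples are headed with the letter D and those of the HJ-23 samples with C, which no label explains, so every direction rests on the sample labels. No label gives an oxygen level for the cultures. Nothing in the labels tells if replicates were grown as separate cultures. The p-values therefore rest on the spread between libraries alone, and that spread may be technical.

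HIFs are heterodimers of an oxygen-regulated alpha subunit and a constitutive beta subunit. When oxygen is present, the EGLN prolyl hydroxylases modify the alpha subunit, the VHL ubiquitin ligase then binds it and the proteasome degrades it, while HIF1AN hydroxylates an asparagine and so blocks coactivator binding. Control of the alpha subunits is thus largely at the protein level, which mRNA counts do not measure. EGLN1 and EGLN3 are themselves induced by HIF and form a feedback loop on it.

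Total counts ran from 34406649 to 34831207 in HJ-23 libraries and from 29769568 to 31120459 in DMSO libraries. Of 12 markers of colorectal epithelium, 6 (EPCAM, CDH1, KRT8, KRT18, KRT19 and CDX2) reached at least 1 CPM (counts scaled to a common library size) in every library, and CDX1 was at 0. The other 5 (KRT20, VIL1, CDH17, LGALS4 and GPA33) stayed below that level. The 12 summed to 4048 to 5513 CPM in HJ-23 and 4094 to 4521 CPM in DMSO. Of the markers of other cell types, COL1A1 of the 7 fibroblast genes and CD68 of the 7 leukocyte genes exceeded 1 CPM in every library, no endothelial gene of 5 did, and PTPRC, CD3E and DCN were at 0. The fibroblast list summed to 55.7 to 60.5 CPM in HJ-23 and 61.5 to 63.8 CPM in DMSO, the leukocyte list to 41.5 to 51.6 CPM in HJ-23 and 35.2 to 41.0 CPM in DMSO, and the endothelial list to 1.16 to 1.74 CPM in HJ-23 and 1.64 CPM in both DMSO libraries. Their part in the results was not tested. In bulk RNA, fewer cells of a kind and less RNA per cell cannot be told apart.

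Of the 9 genes that could be tested, EGLN1, the main HIF prolyl hydroxylase, stood lowest in HJ-23 relative to DMSO. EGLN1 was at 65.2% of its DMSO level by the fitted fold, with both HJ-23 libraries below both DMSO libraries. HIF1A, the alpha subunit studied most, varied more within each group than between the groups. ARNT and ARNT2 had fitted changes within 0.03 of 0 on the log2 scale. None of the 9 members that passed the filter on low counts passed edgeR's quasi-likelihood test after adjustment over 14062 genes, of which 0.0853% passed (0.0569% higher and 0.0284% lower). DESeq2 also called 0 of the 9, against 1.15% of genes called higher and 1.09% called lower. At an unadjusted p below 0.05, 1 of the 9 was lower (EGLN1) and 0 were higher, against 5.25% of all genes lower, 6.77% higher and 12.0% in either direction.

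Among the 9 tested genes, 4 had both HJ-23 libraries below both DMSO libraries (EPAS1, EGLN1, EGLN3 and HIF1AN) and 1 had them above (VHL). Over all genes tested, 21.2% lay below and 24.8% above in this way, 46.0% in all. The median log2 fold change of the 9 was -0.19, against 0.0086 over all genes tested. The levels by library show that the distance between replicates differed widely among the members.

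**Figure D1:**
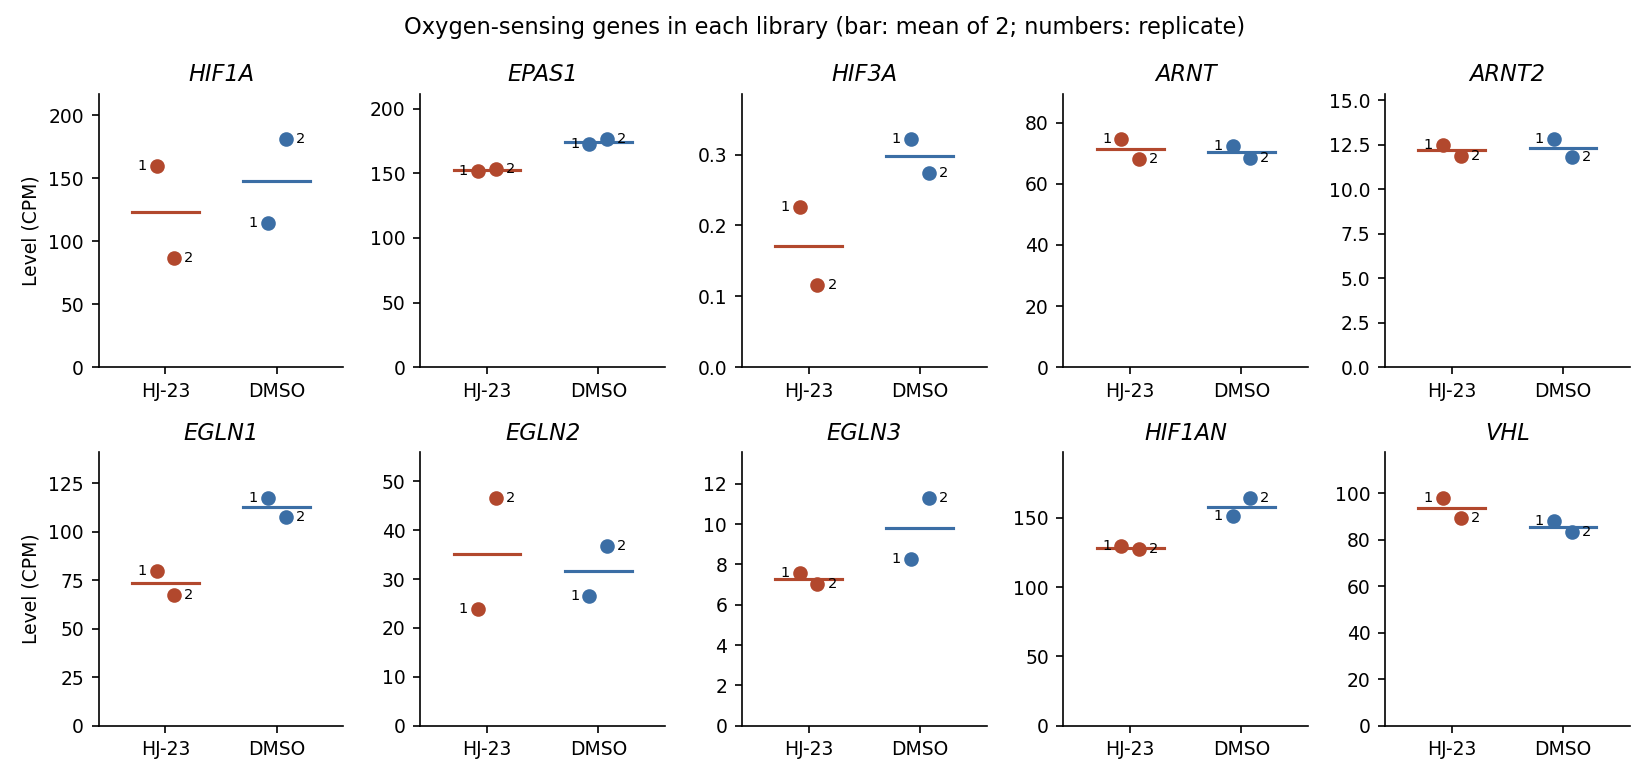
Level in CPM (vertical axis, starting at 0) of the 10 genes in the 2 HJ-23 libraries (left) and the 2 DMSO libraries (right) of each panel; points are libraries marked by replicate number and bars are group means. EGLN1 lies lower in both HJ-23 libraries (67.3 and 79.5 CPM) than in both DMSO libraries (107.6 and 117.5 CPM), while HIF1A and EGLN2 overlap widely.

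HIF1A (ENSG00000100644) encodes the broadly expressed oxygen-labile alpha subunit. Its level was 159.3 and 86.9 CPM in HJ-23 replicates 1 and 2, and 114.1 and 180.9 CPM in DMSO replicates 1 and 2. The highest and the lowest of the 4 libraries were thus a DMSO and an HJ-23 library, and the groups overlapped. The log2 fold change was -0.26 (SE 0.35, edgeR adjusted p = 0.788), with a 95% interval from 0.456-fold to 1.53-fold. Its sign rested on single libraries: leaving out HJ-23 replicate 2 gave 0.087, and leaving out DMSO replicate 2 gave 0.085. These counts therefore do not fix a direction for HIF1A.

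HIF1A transcripts are rich in A and T: the longest annotated transcript had 36.4% GC, below that of all but 3.44% of the genes tested. The libraries differed along GC content. Across 14047 genes of each library, GC content correlated with the deviation from the gene's mean over the 4 libraries at Spearman -0.29 and 0.61 in HJ-23 replicates 1 and 2, and at -0.083 and -0.46 in DMSO replicates 1 and 2. Genes of a library share its depth and preparation, so these are descriptions. With each library's trend over GC content and transcript length removed, HIF1A was at 143.0 and 104.0 CPM in HJ-23, and at 116.2 and 165.3 CPM in DMSO. The groups still overlapped, with a log2 fold change of -0.19 (SE 0.24).

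EPAS1 (ENSG00000116016) encodes HIF-2 alpha, a second oxygen-regulated subunit with its own set of targets. It was at 151.8 and 153.3 CPM in HJ-23, and at 172.5 and 176.4 CPM in DMSO. Replicates lay close together, the HJ-23 libraries were both lower, and the difference was small. The log2 fold change of -0.19 (SE 0.13) did not pass (edgeR adjusted p = 0.560). The 95% interval ran from 0.704-fold to 1.09-fold, so a fall below 0.704-fold lies outside it. The 3 genes whose profile over the 4 libraries was nearest to that of EPAS1, by Euclidean distance of centred log2(CPM + 0.5), were ARF4, NUDT17 and ASXL1, at 0.0077, 0.014 and 0.018. With 4 libraries such likeness is common, and 255 of 14061 other genes lay within 0.1.

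HIF3A (ENSG00000124440) encodes the third alpha subunit, some forms of which restrain the others. It was barely detected, with 8 and 4 counts in HJ-23 and 10 and 8 counts in DMSO. These are 0.226 and 0.116 CPM in HJ-23, and 0.322 and 0.273 CPM in DMSO. It was the only member removed by the filter on low counts. A fit with no filter gave a log2 fold change of -0.78 (SE 0.83), so no difference was detectable at this depth.

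Per kilobase of the longest annotated transcript, HIF1A and EPAS1 had similar levels. HIF1A was at 31.1 ± 13.0 CPM per kilobase in HJ-23 and 37.3 ± 11.9 CPM per kilobase in DMSO (SD, n = 2 each). EPAS1 was at 29.5 ± 0.20 CPM per kilobase in HJ-23 and 33.8 ± 0.54 CPM per kilobase in DMSO (SD, n = 2 each). HIF1A made up 57.8% and 42.5% of the per-length alpha subunit total in HJ-23 replicates 1 and 2, and 46.3% and 57.2% in DMSO replicates 1 and 2. The share moved by more within a group than between groups (exact permutation p = 1.0, two-sided; the smallest p that 2 against 2 allows is 0.333). HIF3A supplied at most 0.0883% in any library. The balance depends on the length used. With the median transcript length, HIF1A averaged 40.4% in HJ-23 and 41.8% in DMSO, and EPAS1 averaged 59.6% in HJ-23 and 58.1% in DMSO.

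ARNT (ENSG00000143437) encodes HIF-1 beta, the common partner of the alpha subunits and of the aryl hydrocarbon receptor. It was at 74.6 and 68.2 CPM in HJ-23, and at 72.3 and 68.5 CPM in DMSO. The groups overlapped and the log2 fold change was 0.021 (SE 0.14, edgeR adjusted p = 0.963), with a 95% interval from 0.798-fold to 1.29-fold. ARNT2 (ENSG00000172379), its close paralog, best known from the nervous system, was at 12.5 and 11.9 CPM in HJ-23, and at 12.8 and 11.8 CPM in DMSO. Its log2 fold change was -0.015 (SE 0.17, edgeR adjusted p = 0.979; 0.012 with library totals as the only scaling). Both intervals include 0, and that of ARNT2 runs from 0.737-fold to 1.33-fold. ARNT made up 88.9 ± 0.29% of the per-length beta subunit total in HJ-23 and 88.7 ± 0.20% in DMSO (SD, n = 2 each).

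**Figure D2:**
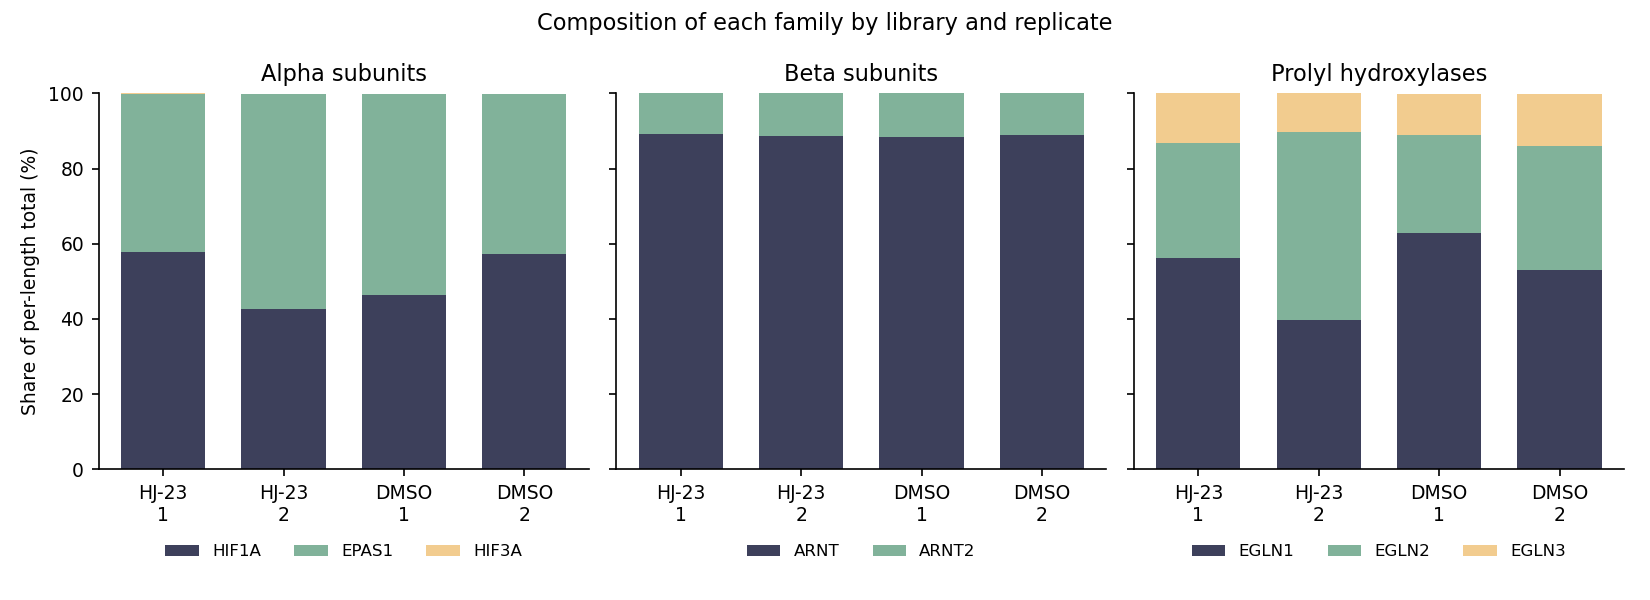
Share of each gene (vertical axis, percent) in the per-length total of its family, for HJ-23 replicates 1 and 2 and DMSO replicates 1 and 2; colours are genes, and HIF3A is too low to be seen. ARNT stays near 89% in every library, while the HIF1A share runs from 42.5% to 57.8% without following the groups and the EGLN1 share is lowest in HJ-23 replicate 2 (39.6%).

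The prolyl hydroxylases are the oxygen sensors proper, and their promoters bear on the feedback because HIF binds the core letters ACGTG or GCGTG. RefSeq (GRCh38.p14) lists promoters for 8 of the 10 members, without entries used here for ARNT2 and VHL. The 250 bases before the first listed start of the EGLN1, EGLN2 and EGLN3 genes are printed 5′ to 3′ on the gene's strand. They show which of these 3 windows holds the core. Capitals mark ACGTG on either strand, its reverse being CACGT.
EGLN1, chr1:231422288-231422537, minus strand: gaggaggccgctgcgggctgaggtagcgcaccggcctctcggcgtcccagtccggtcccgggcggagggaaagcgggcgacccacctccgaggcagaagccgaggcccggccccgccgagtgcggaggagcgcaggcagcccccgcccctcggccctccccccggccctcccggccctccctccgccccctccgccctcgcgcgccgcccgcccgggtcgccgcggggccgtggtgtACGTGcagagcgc
EGLN2, chr19:40798941-40799190, plus strand: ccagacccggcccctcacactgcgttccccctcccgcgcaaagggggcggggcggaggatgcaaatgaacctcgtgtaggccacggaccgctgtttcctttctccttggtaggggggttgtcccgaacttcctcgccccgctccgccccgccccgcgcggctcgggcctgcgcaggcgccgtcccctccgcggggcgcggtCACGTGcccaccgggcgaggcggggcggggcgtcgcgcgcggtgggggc
EGLN3, chr14:33951075-33951324, minus strand: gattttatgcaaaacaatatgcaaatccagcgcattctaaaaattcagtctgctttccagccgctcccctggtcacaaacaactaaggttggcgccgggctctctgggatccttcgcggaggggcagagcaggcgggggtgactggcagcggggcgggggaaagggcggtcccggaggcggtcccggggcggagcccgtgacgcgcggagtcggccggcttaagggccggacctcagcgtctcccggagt

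In the EGLN1 window ACGTG stands 13 to 9 bases before the start. In the EGLN2 window the letters on either strand overlap to form a palindrome, 49 to 44 bases before the start. The EGLN3 window holds neither core. The 250 bases before the second listed start of EGLN2 hold neither core as well. Sequence outside such windows was not searched, so a gene without a match here may hold a core elsewhere. Over 35116 RefSeq promoters, 18.5% held ACGTG and 32.2% GCGTG on either strand in the same 250 bases, and 43.2% held at least 1 of them. Among the 12 promoter entries of the members, 5 held a core, those of HIF1A, EPAS1 and HIF3A by GCGTG. Such matches are descriptions of letters, and none was tested for binding.

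EGLN1 (ENSG00000135766) encodes PHD2, the hydroxylase that sets HIF-1 alpha levels in normal oxygen. It was at 79.5 and 67.3 CPM in HJ-23, and at 117.5 and 107.6 CPM in DMSO. Every HJ-23 library was below every DMSO library, with a wider distance between groups than within them. The log2 fold change was -0.62 (SE 0.15), with a 95% interval from 0.503-fold to 0.846-fold. EGLN1 had an unadjusted edgeR p of 0.00694 and did not pass over all genes (edgeR adjusted p = 0.278; DESeq2 adjusted p = 0.0550). It passed in 1 alternative, the crossed replicate block (edgeR adjusted p = 0.0194), which was chosen after seeing the data. With the GC and length trend removed it was at 77.2 and 77.9 CPM in HJ-23, and at 116.7 and 96.2 CPM in DMSO (log2 fold change -0.46, SE 0.12, edgeR adjusted p = 0.188). Without each library in turn the log2 fold change ran from -0.76 to -0.53.

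EGLN3 (ENSG00000129521) encodes PHD3, the member of the family most strongly induced by HIF in many cells. It was at 7.56 and 7.03 CPM in HJ-23, and at 8.27 and 11.3 CPM in DMSO. The HJ-23 libraries were lower, but DMSO replicate 1 stood near them. The log2 fold change was -0.42 (SE 0.22, edgeR adjusted p = 0.480), and it was -0.21 without DMSO replicate 2. Its 95% interval, from 0.512-fold to 1.09-fold, includes no difference. The gene SPTSSA lies within the annotated span of EGLN3 on the same strand without shared exons, at 2394 and 1787 counts in HJ-23, and 2512 and 2174 counts in DMSO.

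EGLN2 (ENSG00000269858) encodes PHD1, a prolyl hydroxylase not usually counted among HIF targets. It was at 23.8 and 46.7 CPM in HJ-23, and at 26.6 and 36.7 CPM in DMSO. Replicate 2 was higher than replicate 1 in either group, and the HJ-23 libraries were both the lowest and the highest of the 4. The log2 fold change was 0.15 (SE 0.35, edgeR adjusted p = 0.877). Leaving out single libraries gave -0.44 (HJ-23 replicate 2), -0.060 (DMSO replicate 1) and 0.54 (HJ-23 replicate 1), so no direction can be given. EGLN2 shares 2012 exon bases with the readthrough gene RAB4B-EGLN2, which was listed at 10.6 and 13.9 CPM in HJ-23, and at 7.01 and 12.3 CPM in DMSO. A second readthrough gene (ENSG00000268797) had 1 count in each library. Summed with its readthrough genes, an alternative chosen after seeing the data, EGLN2 was at 34.4 and 60.6 CPM in HJ-23, and at 33.6 and 49.0 CPM in DMSO.

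Per kilobase of transcript, EGLN1 was at 10.3 ± 1.22 CPM per kilobase in HJ-23 and 15.9 ± 0.99 CPM per kilobase in DMSO (SD, n = 2 each). EGLN2 was at 9.05 ± 4.16 CPM per kilobase in HJ-23 and 8.13 ± 1.84 CPM per kilobase in DMSO, and EGLN3 at 2.56 ± 0.13 CPM per kilobase in HJ-23 and 3.44 ± 0.75 CPM per kilobase in DMSO (SD, n = 2 each). The per-length total of the 3 hydroxylases was 19.97 and 23.9 CPM per kilobase in HJ-23, and 26.3 and 28.6 CPM per kilobase in DMSO, lower in every HJ-23 library (exact permutation p = 0.333, two-sided, the smallest the design allows). With the median transcript length in place of the longest, the totals overlapped, at 64.0 and 91.3 in HJ-23, and 78.5 and 94.4 in DMSO. EGLN1 made up 56.1% and 39.6% of the total in HJ-23, and 63.0% and 53.1% in DMSO, by the longest transcript. EGLN2 made up 30.6% and 50.1% in HJ-23, and 26.0% and 33.0% in DMSO. The groups overlapped in both shares (exact permutation p = 0.667 for EGLN1). The shares depend on the length used: with the exon union EGLN1 averaged 61.8% in HJ-23 and 71.7% in DMSO, and with the median transcript 25.0% in HJ-23 and 33.3% in DMSO.

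HIF1AN (ENSG00000166135) encodes FIH, the asparaginyl hydroxylase that blocks coactivator binding. It was at 129.6 and 127.2 CPM in HJ-23, and at 151.2 and 164.6 CPM in DMSO. Every HJ-23 library was below every DMSO library, with a log2 fold change of -0.30 (SE 0.13, edgeR adjusted p = 0.443). This difference was not seen once each library's trend over GC content and length was removed. The log2 trends fitted for HIF1AN themselves differed by group, at -0.051 and -0.28 in HJ-23, and at 0.073 and 0.25 in DMSO. With 2 libraries per group, a library bias and a treatment difference cannot be told apart here. The longest HIF1AN transcript is 13011 bases, and with the trend removed HIF1AN was at 134.2 and 154.4 CPM in HJ-23, and at 143.7 and 138.1 CPM in DMSO. Its log2 fold change was then 0.035 (SE 0.11), and the groups overlapped. HIF1AN also shares 325 exon bases with NDUFB8 on the opposite strand, which was listed at 2547 and 3244 counts in HJ-23, and at 2420 and 2040 counts in DMSO. It shares 31 more with a readthrough gene of that strand (ENSG00000255339), listed at 1691 and 2311 counts in HJ-23, and at 2045 and 1921 counts in DMSO. Whether the counting used strand is not stated, so reads of the overlaps cannot be told apart.

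VHL (ENSG00000134086) encodes the subunit that recognises hydroxylated alpha subunits in the ubiquitin ligase. It was at 98.1 and 89.2 CPM in HJ-23, and at 88.0 and 83.3 CPM in DMSO. It was the only tested member with both HJ-23 libraries above both DMSO libraries, and their closest libraries differed by little. Its log2 fold change was 0.13 (SE 0.14, edgeR adjusted p = 0.728), with a 95% interval from 0.864-fold to 1.38-fold. Leaving out HJ-23 replicate 1 gave 0.040, and leaving out DMSO replicate 2 gave 0.065.

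**Figure D3:**
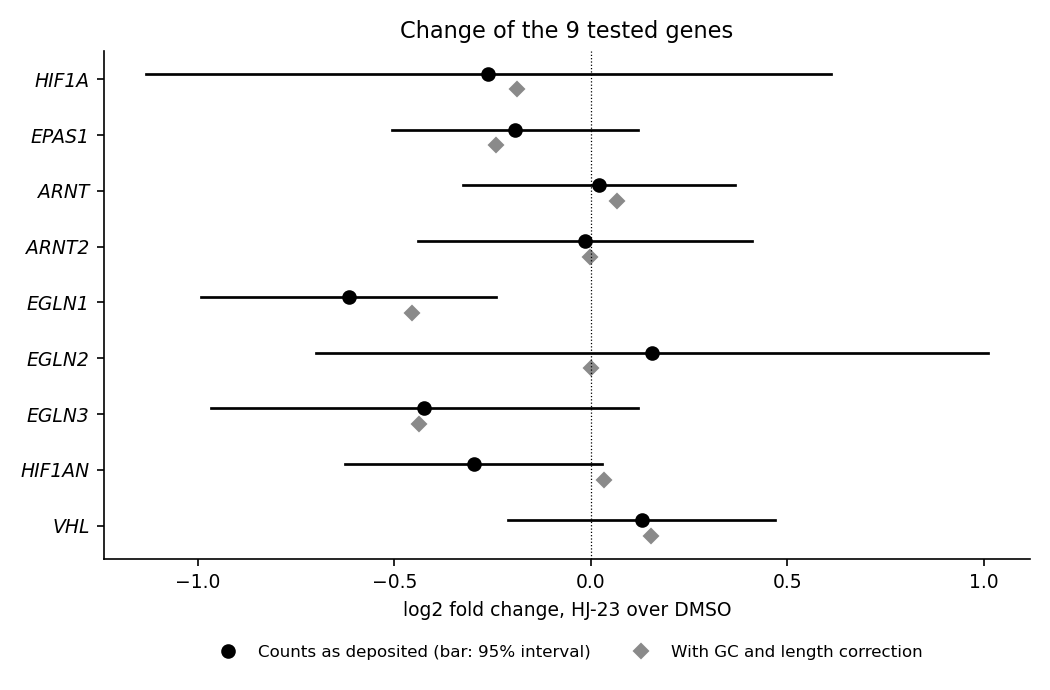
Log2 fold change of HJ-23 over DMSO (horizontal axis) for the 9 tested genes; black points and bars are the fit on the deposited counts with its 95% interval, and grey diamonds are the fit with the GC and length correction. EGLN1 alone has an interval that lies wholly below 0 (-0.99 to -0.24), and HIF1AN shifts from -0.30 to 0.035 with the correction.

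**Figure D4:**
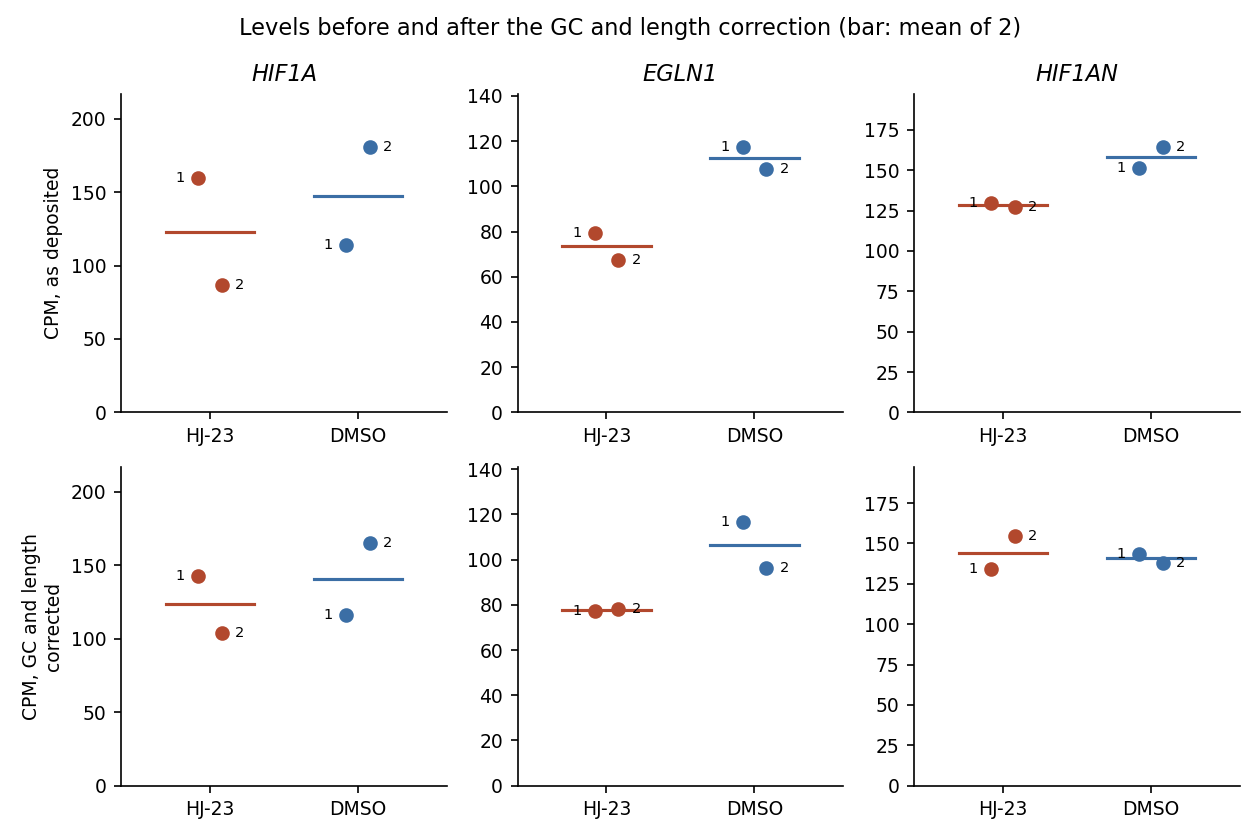
Level in CPM (vertical axes, starting at 0) of HIF1A, EGLN1 and HIF1AN in the HJ-23 libraries (left) and DMSO libraries (right) of each panel, as deposited (upper row) and with each library's GC and length trend removed (lower row); points are libraries and bars are means. EGLN1 stays lower in HJ-23 in both rows, HIF1A overlaps in both, and HIF1AN is lower in HJ-23 only in the upper row.

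Ordered by level per kilobase of the longest transcript, the genes ran in DMSO from HIF1A and EPAS1 through VHL (22.9 CPM per kilobase), EGLN1, ARNT, HIF1AN, EGLN2, EGLN3 and ARNT2 (1.84) to HIF3A (0.051). HIF1A and EPAS1 were the only neighbours in DMSO whose libraries overlapped. In HJ-23 the order was the same but for ARNT (14.6), which stood above EGLN1 (10.3). There, EGLN1, HIF1AN and EGLN2 overlapped in turn, as did HIF1A and EPAS1. The order depends on the transcript length chosen for each gene.

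The other genes of the pathway were read from lists chosen by their roles. The ligase partners of VHL comprised 6 genes, of which 0 passed edgeR's test in either direction, with a median log2 fold change of 0.089. UBE2M, the NEDD8-conjugating enzyme that activates cullins, was at 112.5 and 145.8 CPM in HJ-23, and at 103.4 and 100.6 CPM in DMSO (log2 fold change 0.34, SE 0.17; 0.078, SE 0.088, with the GC and length correction). RBX1, the RING subunit, had a log2 fold change of -0.33 (SE 0.22) and ELOB, the elongin that with ELOC links VHL to the cullin, one of 0.19 (SE 0.25; -0.054 with the GC and length correction). The list's median was -0.025 without HJ-23 replicate 2.

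Of 11 other bHLH-PAS factors, the family to which HIF subunits belong, 8 were tested and 0 passed, with a median of 0.058. DESeq2 gave a median of -0.054, but that fit had no filter and added NPAS4, at 3 and 0 counts in HJ-23, and 4 and 0 in DMSO. With median-of-ratios size factors in edgeR, on the filtered genes, the median was 0.043. NPAS2, a partner of BMAL1 in the circadian clock, was at 100.5 and 113.9 CPM in HJ-23, and at 67.7 and 64.6 CPM in DMSO. Its log2 fold change was 0.70 (SE 0.14, edgeR adjusted p = 0.233), and it passed with DESeq2 (adjusted p = 0.0177). NPAS1 and SIM2 had log2 fold changes of 0.89 (SE 0.27) and 0.25 (SE 0.16), with SIM2 at 0.11 under the GC and length correction. AHR, the aryl hydrocarbon receptor, which competes for ARNT, was at 97.8 and 76.2 CPM in HJ-23 and at 89.6 and 89.3 CPM in DMSO.

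Of 20 coactivators and stability regulators of HIF, 0 passed, with a median of 0.059 (0.018 with the GC and length correction). NCOA1, a steroid receptor coactivator that also works with HIF, was at 16.2 and 10.5 CPM in HJ-23, and at 22.6 and 29.7 CPM in DMSO (log2 fold change -0.97, SE 0.27, edgeR adjusted p = 0.309; DESeq2 adjusted p = 0.0449). HSP90AB1, a chaperone of HIF-1 alpha, had a log2 fold change of -0.62 (SE 0.19) and CREBBP, the acetyltransferase whose binding HIF1AN blocks, one of 0.36 (SE 0.13). HSP90AA1, named after its values were seen, was at 1656 and 881 CPM in HJ-23, and at 1044 and 1721 CPM in DMSO. Its 4 libraries stood in the same order as those of HIF1A, from DMSO replicate 2 at the top to HJ-23 replicate 2 at the bottom. The libraries' correlations with GC content follow that order too, from -0.46 in DMSO replicate 2 to 0.61 in HJ-23 replicate 2. How many other genes share the order was not counted, and a link between HSP90AA1 and HIF1A was not tested. Of 11 enzymes that make or use 2-oxoglutarate, succinate or fumarate, the cosubstrate and inhibitors of the hydroxylases, 0 passed, with a median of -0.11 (-0.053 with the GC and length correction, and -0.031 without DMSO replicate 1). OGDH, the 2-oxoglutarate dehydrogenase, had a log2 fold change of 0.53 (SE 0.17) and IDH3A, a subunit of the mitochondrial isocitrate dehydrogenase, one of 0.26 (SE 0.17).

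Of 18 other oxygenases that use 2-oxoglutarate, 13 had negative log2 fold changes, against 6884 of all 14062 genes tested. Of the 18, 0 passed, with a median of -0.28. FTO, an RNA demethylase, was at 17.9 and 17.2 CPM in HJ-23, and at 45.3 and 54.6 CPM in DMSO. Its groups lay far apart, with a log2 fold change of -1.51 (SE 0.18). FTO did not pass (edgeR adjusted p = 0.0875), but did with no filter on low counts (edgeR adjusted p = 0.0376) and with DESeq2 (adjusted p = 5.86e-10). With the GC and length correction its log2 fold change was -1.20 (SE 0.12), and it did not pass (edgeR adjusted p = 0.0518). KDM3A, a histone demethylase and HIF target, had a log2 fold change of -1.26 (SE 0.26; edgeR adjusted p = 0.233, DESeq2 adjusted p = 7.48e-04), and TET1, a DNA demethylase, one of -1.05 (SE 0.24).

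Among 28 HIF targets, 26 had negative log2 fold changes, against 6884 of all 14062 genes tested. The median of this list, which shares KDM3A, P4HA1 and P4HA2 with the oxygenases, was -0.57. BNIP3L, a mitophagy receptor, fell to 44.1 and 40.6 CPM in HJ-23, against 155.4 and 177.7 CPM in DMSO (edgeR adjusted p = 0.0304), and was the only one to pass in this fit. Its call was lost in 4 alternatives in which edgeR called 0 genes: without HJ-23 replicate 1, without HJ-23 replicate 2, with a minimum mean of 10 CPM, and with the replicate block and the GC and length correction together. The next by p were ANKRD37 (log2 fold change -1.89, SE 0.23) and the glycolytic enzyme PGK1 (-0.84, SE 0.13), with edgeR adjusted p of 0.0875 and 0.156. ANKRD37 passed with no filter on low counts (edgeR adjusted p = 0.0351) and with DESeq2 (adjusted p = 9.48e-11), and PGK1 passed with DESeq2 (adjusted p = 8.72e-05). With the GC and length correction neither ANKRD37 nor PGK1 passed (edgeR adjusted p = 0.105 and 0.142). In 20 of the 28 both HJ-23 libraries lay below both DMSO libraries, against 21.2% of all genes. BHLHE40 alone had both HJ-23 libraries above both DMSO libraries (log2 fold change 0.36, SE 0.16). Groups overlapped for the remaining targets, among them VEGFA (-0.23, SE 0.18), SLC2A1 (-0.17, SE 0.24) and DDIT4 (0.21, SE 0.26). The target members EGLN1 and EGLN3, not counted in this list, had -0.62 and -0.42. Since the list was chosen with these libraries' results known, its direction has no independent support.

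**Figure D5:**
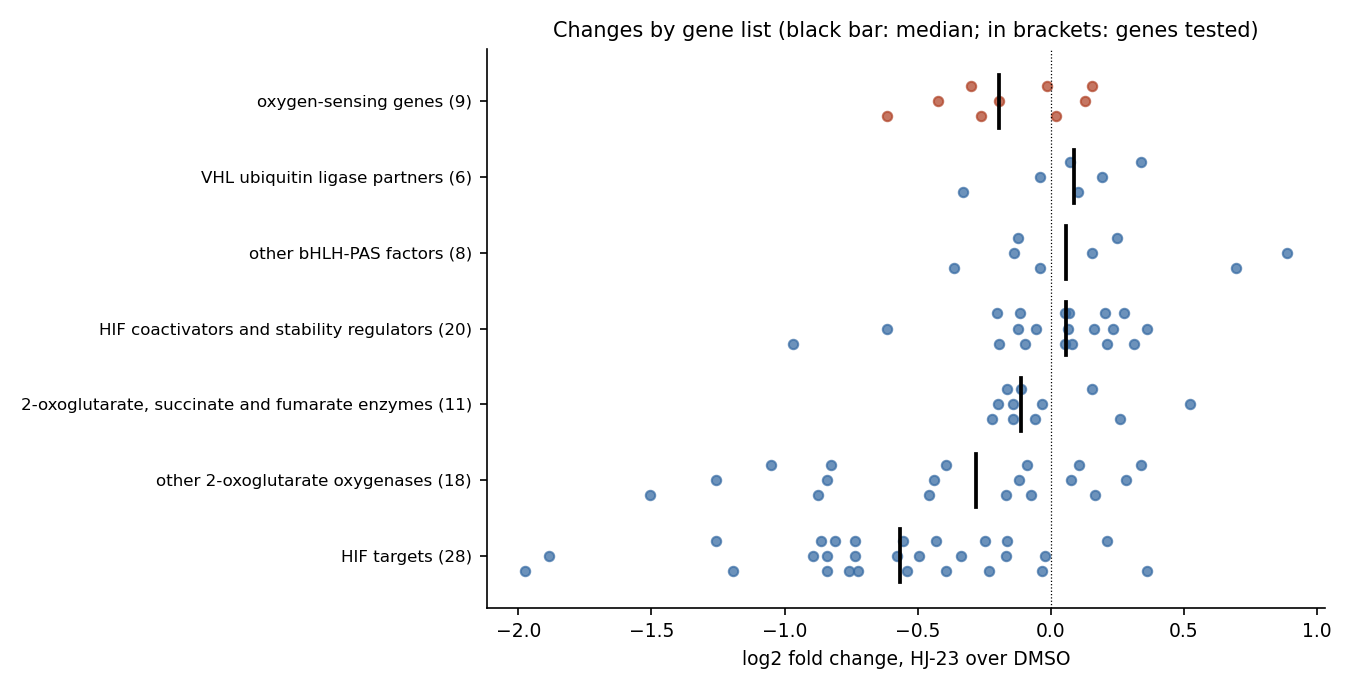
Log2 fold change of HJ-23 over DMSO (horizontal axis) for the tested genes of each list (rows, number tested in brackets); points are genes, spread vertically for legibility, and black bars are list medians. The oxygen-sensing genes lie between -0.62 and 0.15 (median -0.19), while the HIF targets reach -1.98 (median -0.57).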

How the data were processed

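The authors deposited raw counts per Ensembl gene, 1 table per library, whole numbers without normalization. Tools listed by the submitters' processing notes are HISAT2, RSEM, bedtools, Trimmomatic and FastQC. Their versions, the genome build and the strand setting are not stated in the labels. Even values made up 69.6% to 72.3% of counts from 1 to 8, against 49.7% to 50.8% of counts above 50, so both mates of a pair may have been counted. No table repeated another.

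Symbols came from a gene name table (20148 identifiers) and GENCODE 29 (76); lengths and GC content came from GENCODE 29. edgeR 4.0.16 in R 4.3.3 was run with TMM scaling, filterByExpr (14062 genes kept), robust dispersions, the legacy quasi-likelihood F-test and Benjamini-Hochberg adjustment at 0.05. Residual degrees of freedom were 2, and the tests and intervals added prior degrees of freedom drawn from all genes (median 3.98). CPM are counts scaled to a common TMM-adjusted library size. Standard errors were derived from each estimate and its F statistic, and intervals use the t quantile. The fit was tested on simulated data.

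Alternatives were DESeq2 1.42.0, other scalings and filters, a replicate block, a GC and length correction (a smooth trend per library, mgcv 1.9.3) and leaving out each library. Members and lists were chosen with earlier results of these data known. All 10 members were named, and of each other list the 3 tested genes with the smallest p, of which 1 is not reported here; other genes were named after their values were seen. Replicate numbers were not used to pair the libraries in the main fit, and whether they mark pairs is not known.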

Additional observations from a re-analysis of the deposited data

How the results depend on the processing

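No member passed in any edgeR alternative of unpaired or same-numbered libraries, nor with DESeq2. EPAS1, EGLN1 and EGLN3 kept a negative and VHL a positive log2 fold change in each alternative that gave a value (EGLN3 had none at 10 CPM). Other members changed sign. HIF1AN was at 0.035 with the GC and length correction and 0.031 with that correction and the replicate block, EGLN2 at -0.034 in the same blocked fit, and ARNT2 at 0.012 with library totals. Leaving out each library gave -0.78 to 0.087 for HIF1A, -0.065 to 0.060 for ARNT, -0.097 to 0.046 for ARNT2 and -0.44 to 0.54 for EGLN2.

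Over all genes, edgeR called 8 higher and 4 lower, DESeq2 159 and 150, edgeR with no filter 18 and 13, and edgeR with the GC and length correction 17 and 11. It called 0 and 0 with a mean of at least 10 CPM (1254 at an unadjusted p below 0.05) and 0 and 0 with the replicate block and the GC and length correction together (1516). Without each library the counts ran from 0 to 112 higher and 0 to 161 lower, both 0 without HJ-23 replicate 1 (3501 unadjusted) or HJ-23 replicate 2 (1377). Of the pathway list genes, 0 were higher and 1 lower; DESeq2 gave 1 and 14, no filter 3 lower, the 10 CPM filter 0 lower, the blocked and corrected fit 0 lower, and leaving out each library 0 to 7 lower. The cause was not tested. With 1 library left in a group, that library is assumed to vary like the other group.

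The differences between replicates 1 and 2 correlated only weakly, and negatively, between the groups (-0.18 across genes), so the numbers were not taken as pairs. With the replicate block 136 genes were higher and 158 lower, with 11 pathway list genes lower and 0 members called. With the crossed replicate block, chosen after seeing the data, there were 454 and 512, with 1 member lower (EGLN1) and 2 higher and 22 lower pathway list genes.

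The median of the bHLH-PAS list was -0.054 with DESeq2, -0.039 with no filter and -0.045 at 10 CPM. DESeq2 and the fit with no filter add NPAS4, and the 10 CPM filter drops NPAS1, so these medians cover other genes than the main fit. Leaving out each library gave -0.0018 to 0.17 for this list. The same gave -0.025 to 0.0999 for the VHL partners, -0.0037 to 0.090 for the coactivators and -0.11 to -0.031 for the 2-oxoglutarate, succinate and fumarate enzymes. The difference in family share, in percentage points of HJ-23 minus DMSO, ran from -9.25 to 6.02 for HIF1A, -6.00 to 9.28 for EPAS1 and -2.16 to 0.81 for EGLN3, and it kept its sign with the median or exon union length for each gene. Depth limits HIF3A, and 2 libraries per group limit every test.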
